A study of Macaca mulatta with 16 samples.

Results

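Regions of open chromatin that set naive CD4+ T cells apart from the 3 other sorted T cell populations of rhesus macaque blood were described in both directions. Overlapping peaks of 16 ATAC-seq libraries formed 55449 merged regions, and a region counted as open in each library with a peak there. A region was a member of the first set when it was open in all 4 naive CD4+ libraries and in none of the other 12, which held for 0.218% of all merged regions. It was a member of the second set when it was open in none of the 4 naive CD4+ libraries and in all other 12, which held for 0.224% and gave 3 regions more than the first set. The 245 members of both sets were thus chosen by the presence of peaks in all 16 libraries, and their numbers are descriptions without a test. The closed set depended more than the open set on 3 of the settings. It held 47 regions under a stricter summit threshold and 42 where peaks had to cover at least 50% of a region. With lists of equal length it held 91, and under these 3 settings it was smaller than the open set. Single animals or times moved the open set further, to between 391 and 880 regions, against 236 to 374 closed ones. By comparison, 24333 regions were open in all 16 libraries.

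ATAC-seq cuts accessible DNA with a transposase and sequences the fragments, so that a peak marks a stretch of chromatin where the enzyme could insert. T cells came from the peripheral blood of 2 animals, named RhDBCb (animal 1) and RhM22 (animal 2) in the titles. Each animal was sampled before any treatment and again after treatment with 2-hydroxypropyl-beta-cyclodextrin, a ring of sugars that binds cholesterol, given under the skin as a 15% (w/w) Kleptose solution at 1 ml/kg daily for up to 120 days. At each time naive CD4+, memory CD4+, naive CD8+ and memory CD8+ T cells were sorted, 10000 cells per library, giving 8 groups of 2 libraries, 1 from each animal. No animal was sampled at both times without the treatment, so treatment and elapsed time cannot be told apart. The age and sex of the animals and the surface markers of the sort were not given in the sources used here.

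Naive T cells have left the thymus but not yet met their antigen, and they recirculate between blood and lymph nodes. CD4+ cells recognise peptides on class II MHC molecules and mostly help other immune cells, whereas CD8+ cells recognise peptides on class I MHC molecules and can kill the cell that shows them. After antigen contact both lineages leave memory cells, in which many regulatory regions have opened and others have closed. Memory CD8+ cells therefore differ from naive CD4+ cells in lineage as well as in state, while memory CD4+ cells share the lineage and naive CD8+ cells share the state.

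The naive CD4+ lists held 40251 to 40842 peaks, within the range of all 16 lists (36307 to 42034). The lists of naive CD8+ cells of animal 1 were the shortest of all, with 36307 peaks before and 37966 after treatment. Read depth was unknown, and a missing peak was one not called in that list, which is the sense in which "closed" is used here. Positions are those of the rheMac10 build. Genes, sequences and marker genes of the sorted cells are not reported, because no annotation or sequence of that build was used here, so the labels of the populations were not checked against markers.

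Peaks in regions open in naive CD4+ cells alone were weak, as they were in regions open in 1 other population alone. Each deposited list scores a peak by its area, and the strength of a peak is given here as its area percentile, the rank of the score within its own list from 0 to 100. The median member had a mean area percentile of 18.3 over the 4 naive CD4+ libraries (quartiles 11.5 and 25.3, range 3.47 to 41.9), against 58.2 for all 31984 regions open in these libraries. Regions open only in memory CD4+ cells had a median of 18.2, those open only in naive CD8+ cells 24.3 and those open only in memory CD8+ cells 28.6. The library medians were 18.4 before and 17.8 after treatment in animal 1, and 19.1 before and 14.0 after treatment in animal 2 (mean 17.3 ± 2.29, SD, n = 4 libraries). The library of animal 2 after treatment was the lowest, and the other 3 lay between 17.8 and 19.1. In sorted bulk cells, a site open in fewer cells and a site cut less often in every cell cannot be told apart. These 4 libraries come from 2 animals, so the spread is one over libraries and not over 4 animals.

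Every open member lay under the 50th percentile by its mean, 90 members (74.4%) lay under the 25th and 19 (15.7%) under the 10th. Among all regions open in the 4 naive CD4+ libraries the same shares were 41.2%, 13.8% and 1.51%. In 71 members (58.7%) at least 1 of the 4 peaks had an area score under 300, close to the lowest score in the lists of just over 200, and this was so for 9.23% of all regions open there. Library medians of the summit −log10 p were 3.28 to 3.39 for the members and 5.02 to 5.18 for all regions. The members were also short, with a median width of 873 bp (401 to 2731 bp) against 1903 bp for all regions open in the 4 libraries, 930 bp for regions open only in memory CD4+ cells and 903 bp for those open only in naive CD8+ cells. In 92.6% of the members (85.8% of all regions) every naive CD4+ library had exactly 1 peak, and in 68 (56.2%, against 71.7% of all regions) the 4 summits lay within 100 bp of each other.

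The strongest region of this set was chr6:35438299-35440302, with a mean area percentile of 41.9 ± 7.45 (SD, n = 4). Its percentile was 50.3 before and 39.6 after treatment in animal 1, and 32.9 before and 45.0 after treatment in animal 2, so the 2 animals moved in opposite directions. The next was chr1:206092732-206095462, at 40.0 ± 9.26 (SD, n = 4), which was also the widest at 2731 bp. It stood at 30.4 and 34.5 in the 2 libraries before treatment and at 50.7 and 44.5 in the 2 after, with no overlap between times in these 2 animals. Libraries had up to 2 peaks there, with summits up to 1720 bp apart. The members on either side of it went the other way. At chr1:206091425-206092645 percentiles were 32.0 and 32.8 before treatment and 17.4 and 6.30 after. At chr1:206096105-206098624 they were 35.9 and 20.8 before and 9.77 and 10.1 after. These regions adjoin the wide one. The region chr1:206091425-206092645 ended less than 100 bp before it, so that merging across gaps of 100 bp makes them 1 region. Whether the opposite moves belong to separate signals was not tested. Next in strength was chr8:23418122-23420822, at 39.6 ± 4.35 (SD, n = 4), with 45.4 and 38.8 in animal 1 and 39.1 and 34.9 in animal 2. Of the 12 strongest members, the evenest were chr7:159548522-159549897 (37.8 ± 2.71, SD, n = 4) and chr17:80243340-80244036 (33.6 ± 2.10, SD, n = 4), with its 4 libraries between 31.6 and 36.4.

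Other members in the upper range differed more between libraries. The region chr19:3573383-3574667 had percentiles of 44.9 and 46.4 in animal 1 against 18.6 and 25.1 in animal 2 (33.7 ± 14.0, SD, n = 4), while its 4 summits lay within 8 bp. At chr4:15584840-15585917 the library of animal 2 after treatment stood at 18.0 and the other 3 at 34.2 to 46.5. At chr15:63292932-63294168 the library of animal 1 after treatment stood at 19.0 and the others at 37.5 to 44.4. The remaining strong members were chr10:9160446-9162166 (mean percentile 35.8), chr9:35773250-35774665 (34.1), chr3:5458900-5459712 (33.3) and chr9:35969839-35970899 (31.9). At the other end were chr13:101836729-101837255 (5.76), chr12:116859721-116860314 (5.12) and chr11:129883397-129883797 (3.47). In the last of these the area score was 201 in both libraries taken before treatment, just above the lowest score that any list held.

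The second set, closed in naive CD4+ cells alone, had wider and stronger regions than the open set, as was so for the closed sets of the 3 other populations against their open sets. These comparisons are not like for like, since a closed region merges peaks called in 12 libraries and an open region those of 4. Library medians of single peak widths averaged 695.5 ± 11.0 bp in open members (SD, n = 4) and 778 to 1351 bp by population in closed members. The median width of the closed set was 1620.5 bp (725 to 6031 bp), narrower than the 2212 bp of all regions open in the same 12 libraries. Its median mean area percentile over the 12 other libraries was 38.7 (13.9 to 68.0), against 66.6 for all 24840 regions open in these 12. Regions closed in 1 other population alone had medians of 30.9 (memory CD4+), 35.8 (naive CD8+) and 38.2 (memory CD8+). Memory CD8+ cells had by far the strongest peaks there. Their library medians were 61.1 before and 60.9 after treatment in animal 1, and 62.2 before and 57.8 after treatment in animal 2 (60.5 ± 1.87, SD, n = 4). Memory CD4+ libraries had medians of 25.6 and 32.3 in animal 1 and 30.0 and 26.7 in animal 2 (28.6 ± 3.06, SD, n = 4). Naive CD8+ libraries had medians of 33.4 and 32.8 in animal 1 and 28.8 and 22.6 in animal 2 (29.4 ± 4.97, SD, n = 4). The 4 memory CD8+ libraries lay above all 8 others without overlap, whereas memory CD4+ and naive CD8+ libraries overlapped. Peaks were also widest in memory CD8+ cells, with library medians averaging 1351 ± 173 bp in memory CD8+ libraries, 829 ± 34.5 bp in memory CD4+ cells and 778 ± 55.8 bp in naive CD8+ cells (SD, n = 4 each).

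**Figure D1:**
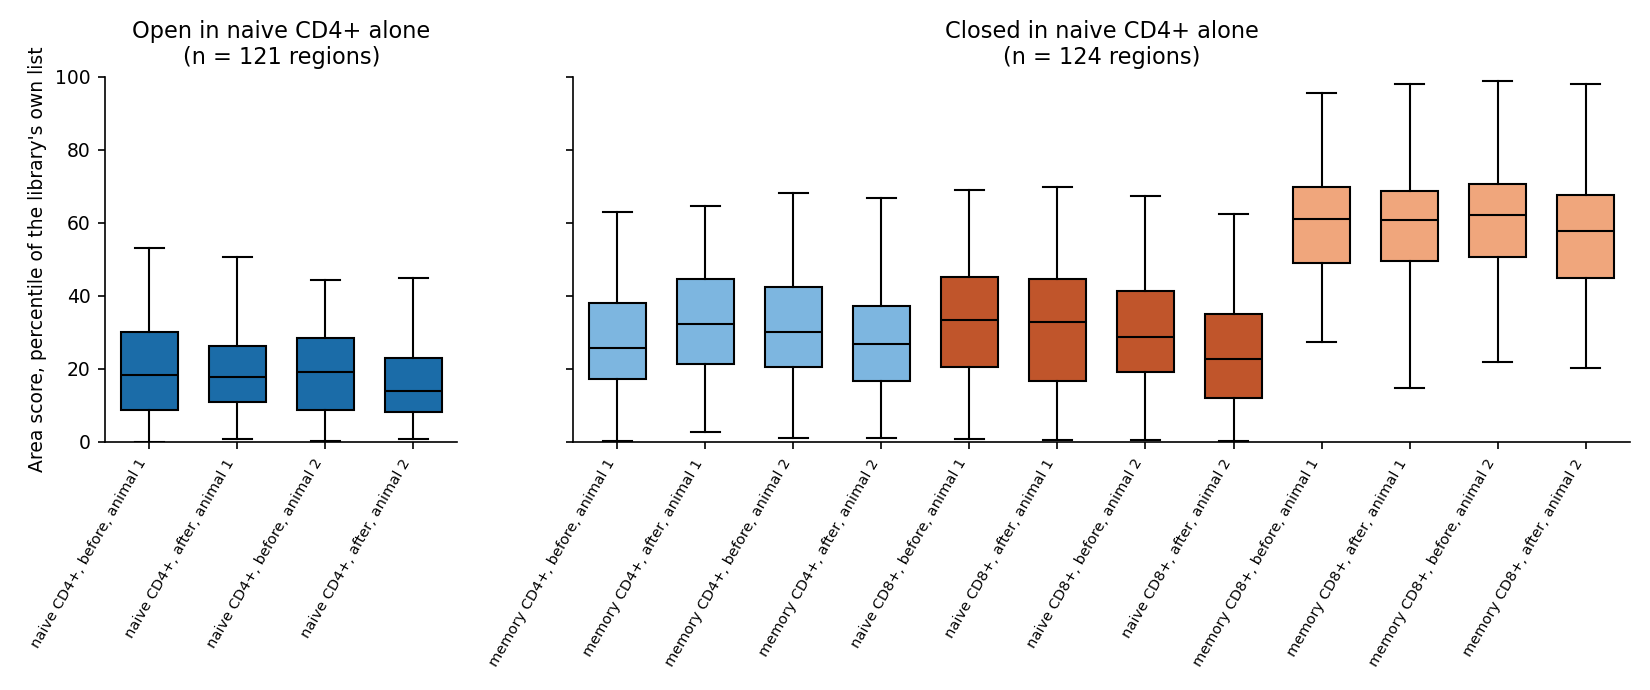
Area percentile (y axis, 0 to 100) of the members' peaks in each library, for regions open in naive CD4+ cells alone (left) and regions closed in them alone (right). Boxes give the median and quartiles and whiskers the lowest and highest member; medians are 14.0 to 19.1 on the left, and on the right 57.8 to 62.2 in memory CD8+ libraries against 22.6 to 33.4 in the 8 others.

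List lengths differ, so the closed regions were also ranked among the 24840 regions open in all 12 other libraries, which gives every library a rank of the same length. On this scale the median member stood at the 40.9th percentile in memory CD8+ cells (± 1.65, SD, n = 4 libraries). Naive CD8+ cells stood at 11.4 ± 5.77 and memory CD4+ cells at 7.58 ± 0.920. Naive CD8+ libraries of animal 1 stood at 17.6 and 14.7 and those of animal 2 at 8.70 and 4.82. So the closed regions lay in the low range of memory CD4+ and naive CD8+ cells and below the middle in memory CD8+ cells.

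Region by region, all 4 memory CD8+ libraries ranked above all 8 others in 100 closed members (80.6%), a pattern found in 5.56% of the 24840 regions. Memory CD8+ cells ranked above naive CD8+ cells without overlap in 105 members (84.7%, background 14.2%), and naive above memory CD8+ cells in 0 (background 17.7%). Between the 2 remaining populations the counts were closer to the background. Naive CD8+ cells ranked above memory CD4+ cells in 29 members (23.4%, background 18.9%), and memory CD4+ above naive CD8+ cells in 15 (12.1%, background 13.9%).

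By mean rank, memory CD8+ cells were highest in 120 members (96.8%, background 29.8%). In the other 4 members naive CD8+ cells were highest, namely chr4:123882452-123883621, chr4:124428119-124429059, chr6:14908935-14910979 and chr6:91645339-91646353, and memory CD4+ cells were lowest in each. These 4 fall outside the rule for named regions and were singled out after their values were seen. In the 383 regions open in all 12 other libraries and in 1 to 3 of the naive CD4+ libraries, the full separation was seen in 163 (42.6%) and memory CD8+ cells were highest in 329 (85.9%).

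The same reading was made of regions closed in 1 other population alone. In all 4 cases the population with the strongest peaks in most regions was the one that differed from the closed population in both lineage and state. Naive CD8+ cells were highest in 22 of 32 regions closed in memory CD4+ cells alone (68.75%, against 34.0% of all regions open in the same 12 libraries). Memory CD4+ cells were highest in 110 of 141 regions closed in naive CD8+ cells alone (78.0%, against 21.0%). In 363 of the 461 regions closed in memory CD8+ cells alone (78.7%, against 23.3%) naive CD4+ cells were highest. The regions set beside these shares were mostly open in all 16 libraries, as were 24333 of the 24840 used for naive CD4+ cells. Regions open in only some libraries of the closed population were read for naive CD4+ cells alone, where memory CD8+ cells were already highest in 85.9%. How far the pattern is particular to fully closed regions was thus not read for the other populations. These shares share libraries with each other and were not tested.

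**Figure D2:**
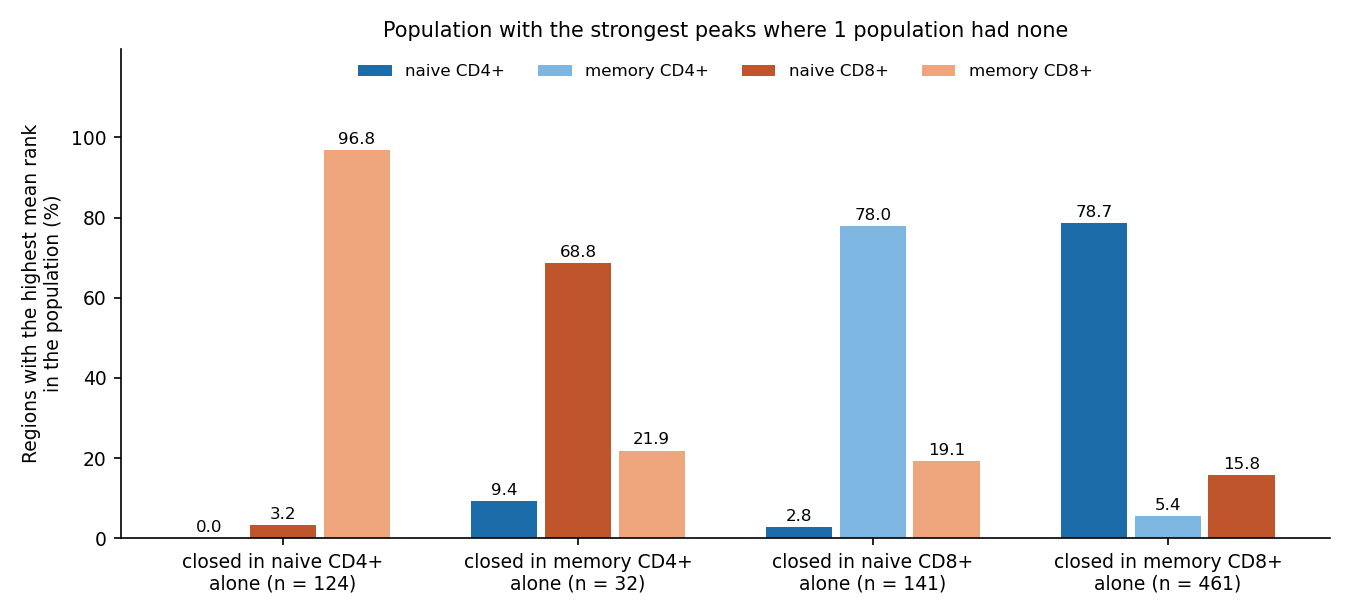
Share of regions (y axis, %) in which a population had the highest mean rank by area score, for regions closed in 1 population alone (x axis, number of regions given) with the 3 open populations as bars. The highest bars are memory CD8+ cells at 96.8%, naive CD8+ cells at 68.8%, memory CD4+ cells at 78.0% and naive CD4+ cells at 78.7%, each the population opposite in lineage and state to the closed one.

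The strongest closed region was chr12:31469875-31473070, whose mean percentile was 85.2 ± 3.72 in memory CD8+ libraries, 59.9 ± 2.12 in naive CD8+ libraries and 58.9 ± 4.67 in memory CD4+ libraries (SD, n = 4 each). All of its 12 summits lay within 5 bp. The highest mean in memory CD8+ cells among the named regions was at chr1:139422352-139427354, with percentiles of 95.6 and 97.9 in animal 1 and 97.7 and 98.0 in animal 2. Naive CD8+ cells there had 61.9 and 61.0 in animal 1 but 40.7 and 23.0 in animal 2, and memory CD4+ cells had 40.5 and 44.7 in animal 1 and 59.0 and 59.1 in animal 2. By area this region, 5003 bp wide, was thus among the strongest peaks of memory CD8+ cells, and it was not called in naive CD4+ cells. By summit −log10 p it stood out less, at 5.40 to 6.08 in the memory CD8+ libraries. Their medians over all regions open in the same 12 libraries were 5.29 to 5.59. The 2 animals were in opposite order in the intermediate populations. The widest member, chr12:129183831-129189861 (6031 bp), averaged the 91.3rd percentile in memory CD8+ cells, the 40.5th in naive CD8+ cells and the 38.7th in memory CD4+ cells.

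Some strong closed regions separated the intermediate populations. At chr3:59728075-59732470 memory CD4+ cells (64.9) exceeded naive CD8+ cells (39.6), with memory CD8+ cells at 91.4. At chr1:199827342-199831579 naive CD8+ cells (63.1) exceeded memory CD4+ cells (31.4), with memory CD8+ cells at 93.0. The same order was seen at chr10:31173824-31176137, with 51.9 in naive CD8+, 29.8 in memory CD4+ and 84.3 in memory CD8+ cells. The libraries of the 2 intermediate populations did not overlap in any of these 3 regions. The region chr3:1893437-1894998 was the evenest of the named regions in memory CD8+ cells (78.5 ± 0.315, SD, n = 4), while naive CD8+ cells averaged 60.2 and memory CD4+ cells 52.0.

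The remaining named closed regions had overall mean percentiles of 60.7 (chr1:67887796-67889895), 60.6 (chr16:9903757-9907163), 59.0 (chr7:47015616-47018103), 57.8 (chr5:145553362-145555959) and 56.5 (chr9:4565506-4567548). Memory CD8+ cells were highest in all 5, at 74.9 to 83.1. The weakest members were chr20:61448302-61449621 (22.8), chr3:76791463-76792187 (15.8) and chr4:153397501-153398240 (13.9). Memory CD8+ cells were highest there too, at 36.4, 24.7 and 22.3.

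Regions that missed the rule in exactly 1 library describe the edge of both sets. Almost as many regions as in the open set were open in the 4 naive CD4+ libraries and in 1 other. The other library was a naive CD8+ one in 62 regions (55.4%), a memory CD4+ one in 49 and a memory CD8+ one in 1. Of the 62 naive CD8+ cases 56 were in animal 2 (28 before and 28 after treatment) and 6 in animal 1 (1 and 5), whose naive CD8+ lists were the shortest; the part of list length in this was not tested. Memory CD4+ cases were spread over the libraries as 10, 15, 18 and 6. The extra peak was weak, with a median percentile of 7.08. Another 146 regions were open in 3 of the 4 naive CD4+ libraries and no other, and the missing library was animal 2 after treatment in 52, animal 1 after treatment in 22 and each library before treatment in 36.

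On the closed side, 70 regions were closed in the naive CD4+ libraries and in 1 of the other 12. That library was a naive CD8+ one in 40, of which 29 were in animal 2, a memory CD4+ one in 30 and a memory CD8+ one in 0. A further 67 regions were open in the 12 other libraries and in 1 naive CD4+ library (20, 17, 16 and 14 by library), where the single peak had a median percentile of 7.42. Times were even in all 4 kinds of near miss, with the exceptional library taken after treatment in 54, 74, 37 and 31 regions and before it in 58, 72, 33 and 36, in the order above.

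**Figure D3:**
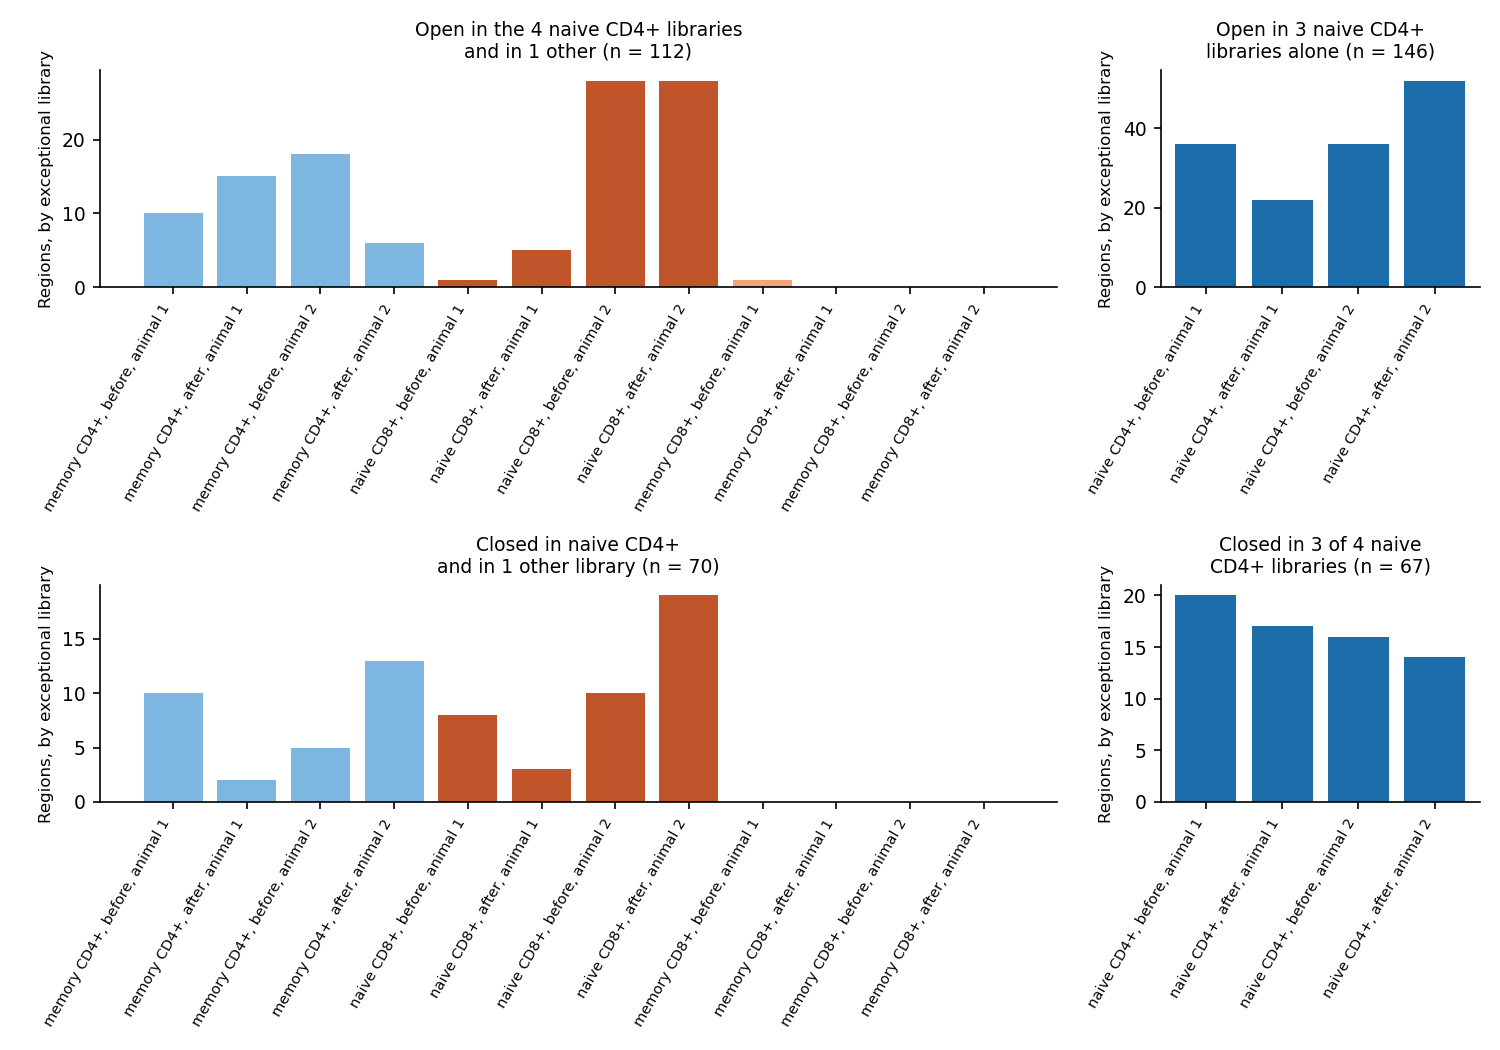
Number of regions (y axis) that broke the rule in exactly 1 library, by that library (x axis), for the 4 kinds of near miss. Naive CD8+ libraries of animal 2 account for 56 of the regions open in 1 further library (top left), and memory CD8+ libraries for 1 of these and for none of the 70 at bottom left.

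The 2 strongest near misses on the open side were stronger than any open member. The region chr11:129923849-129925633 had a mean percentile of 58.0 in naive CD4+ cells and 1 further peak, at 18.8, in memory CD4+ cells of animal 1 after treatment. It lay 10.6 kb from a member. The region chr15:37732620-37734213 stood at 55.2, with a further peak at 29.7 in memory CD4+ cells of animal 2 before treatment. Of regions open in 3 naive CD4+ libraries, the strongest were chr6:57272377-57273461 (31.7, missing in animal 2 after treatment) and chrX:49264792-49265714 (31.2, missing in animal 1 before treatment). Of near misses on the closed side, chr4:123359427-123362850 had a mean percentile of 64.9, lacked a peak in naive CD8+ cells of animal 2 after treatment and lay 0.123 kb from a member. The region chr19:51162508-51165471 (62.4) lacked a peak in memory CD4+ cells of animal 1 before treatment. At chr2:129838959-129841427 (65.2) and chr1:90175775-90180617 (60.1) there was 1 naive CD4+ peak, at the 20.3rd and the 2.88th percentile of its list.

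Among the 1902 regions that had a peak in some naive CD4+ library and in no other library, the open members were those open in all 4. Both libraries of animal 1 and none of animal 2 were open in 188, and both of animal 2 alone in 145, whereas both libraries taken before treatment alone were open in 52 and both taken after treatment alone in 46. Of the 24840 regions open in the 12 other libraries, 42 were open in naive CD4+ cells of animal 1 alone and 27 in those of animal 2 alone, against 11 before treatment alone and 4 after treatment alone. In both directions more regions divided by animal than by time.

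The rule can be applied to 1 animal and its regions read in the other, which the choice did not use. In animal 1, 849 regions were open in both naive CD4+ libraries and in none of the other 6, and in animal 2 there were 419. The open members are the regions common to both, 14.3% of the first list and 28.9% of the second. Regions chosen in animal 1 were open in 64.7% and 62.2% of cases in the 2 naive CD4+ libraries of animal 2, and regions chosen in animal 2 in 53.2% and 56.6% in those of animal 1 (59.2 ± 5.21%, SD, n = 4 libraries). They were open in 14.3 ± 1.78% in memory CD4+ libraries and 3.14 ± 1.17% in memory CD8+ libraries of the other animal. Naive CD8+ libraries differed by animal, at 37.8% and 37.1% in animal 2 and 5.01% and 5.97% in animal 1. All merged regions were open in 58.7 to 69.5% per library, with the 2 lowest values, 58.7% and 61.6%, in naive CD8+ cells of animal 1.

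Closed regions were read in the other animal in the same way. There were 364 in animal 1 and 324 in animal 2, of which the closed members made up 34.1% and 38.3%. They were open in 15.1% and 13.5% of cases in the naive CD4+ libraries of animal 2 and in 26.2% and 24.4% in those of animal 1 (19.8 ± 6.44%, SD, n = 4 libraries). The shares were 84.0 ± 4.21% in memory CD4+, 71.8 ± 7.89% in naive CD8+ and 97.0 ± 1.11% in memory CD8+ libraries. Every memory library lay above its own share over all merged regions. Among naive CD8+ libraries this held in animal 1 only, at 77.2% and 79.6% against 58.7% and 61.6% of all regions. Those of animal 2 lay below all regions, slightly so before treatment and at 63.2% against 66.9% after it. In either animal both naive CD4+ libraries thus lay above the 6 others for the open direction and below them for the closed one. Choosing at 1 time and reading at the other, in the same animals, gave 69.2 ± 4.87% for the open and 15.3 ± 3.33% for the closed direction in naive CD4+ libraries (SD, n = 4).

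**Figure D4:**
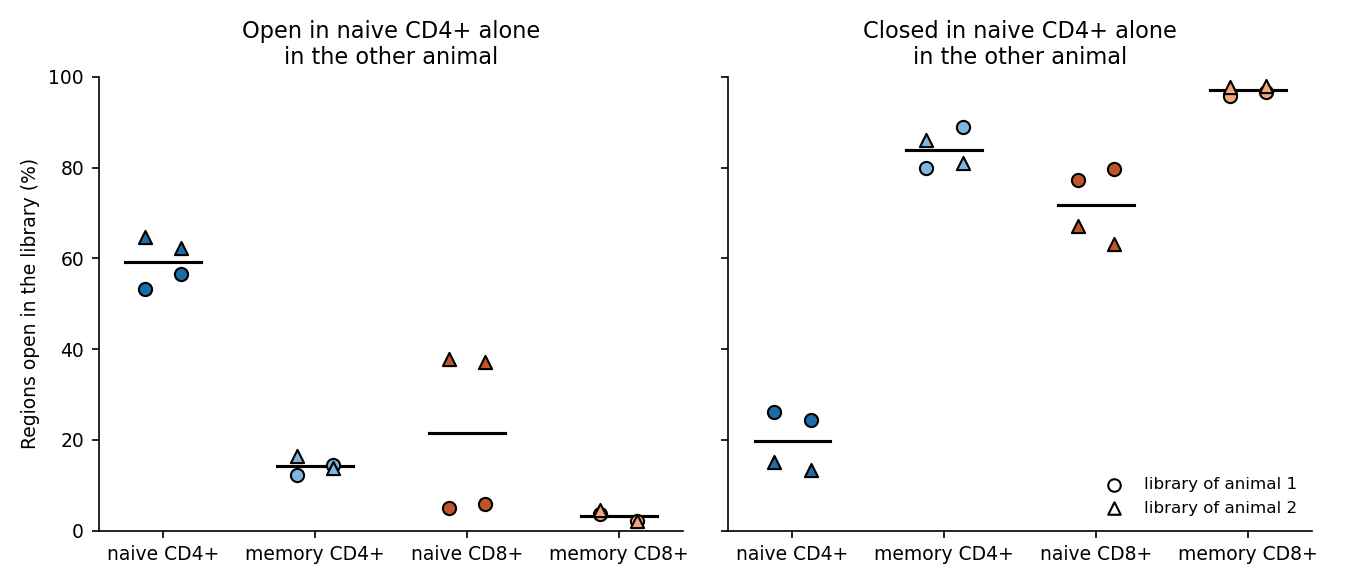
Share of regions open (y axis, %) in each library of the animal that was not used to choose them, by population (x axis), for regions open (left) and closed (right) in naive CD4+ cells of the other animal. Points are libraries, circles of animal 1 and triangles of animal 2, and lines are means; naive CD4+ libraries lie at 53.2 to 64.7% on the left and 13.5 to 26.2% on the right, and naive CD8+ libraries of the 2 animals lie apart on the left.

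Strength after treatment was compared with strength before, within each animal, by rank among the regions open in all libraries concerned. In naive CD4+ cells 24 open members ranked higher after treatment in both animals (19.8%, background 33.6%) and 40 ranked lower in both (33.1%, background 23.6%). Among the 7530 regions open in the 4 naive CD4+ libraries and in some but not all others, 26.2% ranked higher and 27.5% lower. The median change of a member was −0.06 percentile in animal 1 and −1.93 in animal 2, with the larger one in animal 2.

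In the 3 populations in which closed members were open, more of them ranked lower than higher after treatment in both animals. In naive CD8+ cells 9 ranked higher in both animals (7.26%, background 26.5%) and 59 lower (47.6%, background 22.0%), with median changes of −2.44 and −2.65 percentiles in animals 1 and 2. In memory CD4+ cells 23 ranked higher (18.5%, background 33.0%) and 44 lower (35.5%, background 26.2%), with median changes of −0.03 in animal 1 and −1.08 in animal 2. The median rank of the members there went opposite ways in the 2 animals. It was 6.92 before and 8.17 after treatment in animal 1, and 8.54 before and 6.67 after in animal 2. In memory CD8+ cells 23 ranked higher (18.5%, background 21.3%) and 39 lower (31.5%, background 20.6%), with median changes of −0.18 and −2.09, against −0.55 and 0.67 over all regions. Outside naive CD8+ cells the median change of a member in animal 1 was thus close to 0. The 383 regions open in the 12 libraries and in 1 to 3 naive CD4+ libraries leaned the same way, with 14.1% higher and 38.9% lower in naive CD8+ cells, 20.1% and 34.7% among memory CD4+ ranks and 16.2% and 33.2% among memory CD8+ ranks. The counts share the same 2 animals and were not tested. Between animals there was no such lean in the open set, where both libraries of animal 1 ranked above both of animal 2 in 27 members (22.3%, background 21.9%) and the reverse held in 27 (background 22.9%).

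The order of the closed members by strength was on average shared most within a population, while open members could be read in 1 population only. Over the open members the Spearman correlation of area percentiles averaged 0.551 between times in the same animal and 0.393 between animals at the same time (2 pairs of libraries each). Over the closed members it averaged 0.854 between times (from 0.794 to 0.946) and 0.725 between animals (from 0.539 to 0.946, 6 pairs each). Between populations it averaged 0.375 (48 pairs, from −0.003 to 0.659), so the ranges between animals and between populations overlapped. The members of a pair share their libraries and each list has its own depth, so these are descriptions.

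No open member had a closed member within 50 kb, where 1.51% of all regions had one. A region open in all 16 libraries lay within 50 kb of 78 open members (64.5%) and 100 closed members (80.6%), against 82.3% of all regions. The share was similar, 65.1%, for regions open only in naive CD8+ cells, and it was 77.4% for those open only in memory CD4+ cells. Another member of the same set was within that distance for 11 open members (9.09%, against 1.183% of all regions with an open member that close) and 16 closed members (12.9%, against the same 1.51%).

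Neighbours that separate memory CD8+ cells from the rest differed most between the sets. Regions closed in memory CD8+ cells alone lay within 50 kb of 20 open members (16.5%, against 4.54% of all regions), and regions open in memory CD8+ cells alone near 1 (0.826%, against 8.71%). Closed members showed the mirror image, with a region open in memory CD8+ cells alone near 41 (33.1%) and one closed in memory CD8+ cells alone near 0. A region closed in memory CD8+ cells alone lay near 5.19% of regions open only in naive CD8+ cells and near 3.57% of those open only in memory CD4+ cells. For regions closed in naive CD8+ cells alone the share near a region open in memory CD8+ cells alone was 8.51%. Regions open in all memory and no naive libraries lay near 2 open members (1.65%) and 15 closed members (12.1%), against 4.92% of all regions. Regions open in all naive and no memory libraries lay near 9 open members (7.44%) and 3 closed members (2.42%), against 3.56%. Regions open in all CD8+ and no CD4+ libraries lay near 13 closed members (10.5%, against 2.15%) and near 0 open members. Regions open in all CD4+ and no CD8+ libraries lay near 2 open members (1.65%, against 1.95% of all regions) and near 0 closed members. Sets of other populations had more of some neighbours, with regions open in all naive and no memory libraries near 9.43% of regions open only in naive CD8+ cells, and regions open in all memory and no naive libraries near 19.9% of regions closed only in naive CD8+ cells.

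**Figure D5:**
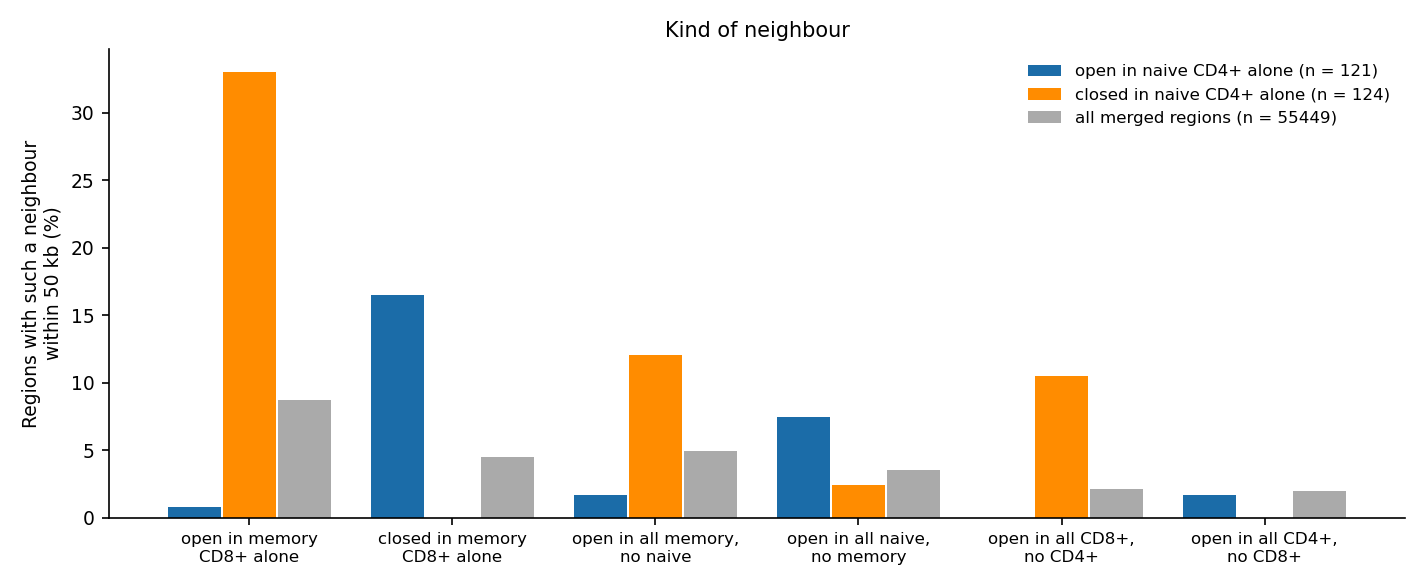
Share of regions (y axis, %) that had a neighbour of each kind (x axis) within 50 kb, for open members, closed members and all 55449 merged regions. Closed members stand at 33.1% beside regions open in memory CD8+ cells alone, and open members at 16.5% beside regions closed in these cells alone, against 8.71% and 4.54% of all regions.

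The next region on each side of an open member was open in a naive CD4+ library in 77.0% of cases and in another library in 57.1%, over 230 next regions that were not members themselves. For the 238 such regions beside closed members the shares were 36.9% and 58.8%, and over all regions 66.3% and 65.7%. The nearest region with a peak in a lacking library was a median of 7.29 to 10.1 kb away from open members in memory CD4+ and naive CD8+ libraries, and 13.6 to 15.98 kb away in memory CD8+ libraries. For closed members the nearest region with a naive CD4+ peak was 8.86 to 9.38 kb away. A region open in some lacking library lay within 500 bp of 10 open and 12 closed members. These distances were not taken for other regions, so whether they are particular to the members was not tested.

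The open members fell into 4 groups of members at most 50 kb apart, with 11 members in them, and the other members stood alone. The largest, chr1:206048676-206098624, held 4 members among 10 regions in 49.9 kb, of which none was open in all 16 libraries and 1 was open in all naive and no memory libraries. Its members were chr1:206048676-206049090 (mean percentile 10.6), chr1:206091425-206092645 (22.1), the wide region chr1:206092732-206095462 described above and chr1:206096105-206098624 (19.1). The group at chr10:29080891-29092534 was made of 3 members and no other region, at mean percentiles of 14.1, 28.7 and 26.6. The group at chr20:11970618-11977590 held 2 members, at 24.8 and 30.8. The last group, 2 members at chr11:129883397-129913223, included the weakest open member and was named after its values were seen.

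Closed members formed 7 such groups, with 16 members. The group chr12:129183831-129218442 held 3 members among 5 regions, with the widest member at 56.8 and 2 others at 35.1 and 37.6. The group chr4:123876290-123927132 held 3 members among 13 regions, none of them open in all 16 libraries. Its middle member, chr4:123882452-123883621, was 1 of the 4 in which naive CD8+ cells were highest. The group chr12:31451170-31473070 held 2 members, the strongest closed region at 68.0 and another at 30.7.

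Members were spread over the chromosomes. Chromosome 9 held the most open members, 13 (10.7%, against 5.00% of all regions), with no 2 of them within 50 kb of each other. Chromosome 1 held the most closed members, 15 (12.1%, against 9.98% of all regions). The X chromosome held 3 open and 2 closed members.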

How the data were processed

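Each library was deposited as 1 list of peaks, so replicates had been called separately. The submitters' processing notes name cutadapt 1.18, Bowtie2 2.3.4.1, Genrich 0.6 and the build rheMac10. How these were set, how read ends and duplicates were treated and how many reads each library had were not given in the sources used here. For each peak the authors' lists give the area as a score, whose lowest value was just over 200, and the −log10 p at its summit as deposited. Neither is comparable between lists, so they served to rank and filter within a list. The titles, which give animal 2 a single name, were followed although its number in the file names changes with the population.

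Peaks sharing at least 1 bp were merged over the 16 libraries, which gave 121 open and 124 closed members. Where a library had several peaks in a region, the highest area score was taken. Ranks of equal length were taken among regions open in all libraries concerned. No test was run, since the rule uses all 16 libraries. The members, lists and comparisons were chosen with earlier results of these data known. Named regions were, in each direction, the 12 of highest and 3 of lowest mean percentile and the widest, the 2 strongest near misses of each kind, and the 3 groups with most members; others are named as such. Alternatives were lists of equal length (36307 peaks), a summit −log10 p of at least 3.42, coverage of at least 50% of a region, windows of 500 bp around summits, merging across gaps of 100 bp, autosomes only, each animal or time alone and each library left out. The search for members was run on simulated data whose planted regions had peaks in every required library and in no other. Their recovery was fixed by that design, so it checks the code and not the effect of weak or missed peaks. Analyses of genes, motifs and markers planned for a genome of the same build were not run. Tools were matplotlib 3.10.9, pandas 2.3.3, numpy 2.4.6 and scipy 1.17.1 under Python 3.11.15.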

Additional observations from a re-analysis of the deposited data

Results flagged for a closer look

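Groups of 4 libraries of 1 population were checked for a library that stood far from the other 3, and 5 of 87 groups held such a library. The criterion flags about 1 in 20 groups of independent normal values. The 87 groups reuse the same libraries and members, so no rate can be set beside their number. In closed members the median summit −log10 p of memory CD8+ cells was 4.84 in animal 2 after treatment, against 5.14 to 5.20 in the other 3 libraries. The same library was also the lowest of the 4 over all regions open in the libraries other than naive CD4+, at 5.29 against 5.47 to 5.59. Since this value is not comparable between lists, the flag says nothing particular about the members. The median peak width of closed members in naive CD8+ cells was 695.5 bp in animal 2 after treatment, against 796 to 814.5 bp. Among regions open in the 4 naive CD4+ libraries and 1 other, the only memory CD8+ case (1 region) was in animal 1 before treatment, and a lone case is always flagged. The closed region chr1:139422352-139427354 had a percentile of 95.6 in memory CD8+ cells of animal 1 before treatment, against 97.7 to 98.0 in the other 3 libraries. The closed region chr3:1893437-1894998 had a percentile of 41.0 in memory CD4+ cells of animal 1 before treatment, against 54.0 to 56.6 in the other 3.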

How the results depend on the processing

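No paired test was run, since the results on members come from no test, but before and after were read within each animal. With peaks of those libraries merged anew, the count of regions open in naive CD4+ cells alone was 880 and 430 with animal 1 or 2 alone and 391 both before and after treatment alone, which have fewer libraries to meet (849 and 419 for the animals on the regions of all 16 libraries). The count of closed regions was 374, 331, 236 and 267 in the same order, 47 with the stricter summit threshold and 42 with coverage of at least 50%. The cause of the last 2 was not tested. The median percentile of open regions was 13.0, 13.2, 12.8 and 12.05 in the same order, and 15.3 to 18.9 with each library left out. That of closed regions was 42.2 with the stricter threshold, 46.2 with coverage of 50%, 31.2 in animal 2 alone, and 34.2 and 32.9 before and after treatment alone. The share of closed regions open in naive CD4+ cells of the other animal was 26.7% with the stricter threshold and 27.6% with coverage of 50%. The share of closed regions with memory CD8+ cells above the 8 other libraries was 71.4% with coverage of 50%. It was 77.3 to 82.9% with each library left out. Counts with each library left out reached at most 174 and 144. Leaving aside both naive CD8+ libraries of animal 1, chosen after seeing the data, gave 129 open and 149 closed regions. The other alternatives moved counts by less than 1.5 times, and percentiles and other-animal shares by less than their spread over libraries. The memory CD8+ share was instead held against a binomial interval over members, 72.6 to 87.2%. That interval treats regions from the same animals as independent, so it is no measure of spread between animals. Depth was unknown, and 71 open members had at least 1 peak with an area score under 300.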
